A study of Mus musculus with 4 samples.

Results

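The core circadian clock was followed on the arrays through 10 of the 18193 genes named on them: Per1, Per2, Per3, Cry1, Cry2, Clock, Arntl, Nr1d1, Dbp and Tef. Every probe set whose platform annotation named a single one of these genes was taken, which gave 24 of the 45037 probe sets that are not controls. The arrays profiled Paneth cells, the antimicrobial secretory cells at the base of small intestinal crypts, cut from mouse tissue by laser capture. There were 2 arrays from mice hypomorphic for Atg16, labelled Atg16-hypomorph, and 2 from wildtype mice, and both groups were of a mixed C57BL/6 and 129ola strain. A hypomorph carries an allele of reduced function, and Atg16l1 is an autophagy gene. The sources used here do not give age, sex, the design of the allele, the number of animals or the hour at which tissue was taken.

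The clock is a feedback loop in transcription that runs in nearly every cell, the intestinal epithelium included. CLOCK pairs with BMAL1, the product of Arntl, and the pair switches on the Per and Cry genes, Nr1d1, Dbp and Tef through E-boxes in their regulatory DNA. PER and CRY proteins return to the nucleus and repress that pair, and REV-ERB alpha, the product of Nr1d1, represses Arntl. In most peripheral tissues Dbp, Nr1d1 and the Per genes therefore swing widely over the day, Arntl swings in the opposite phase and Clock swings little. For this reason the levels of these genes in samples taken once carry the hour of sampling with them, and Per1 also responds directly to glucocorticoids.

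All intensities below are the deposited linear values. Each log2 difference takes hypomorph minus wildtype after 32 is added to every intensity, so that changes of dim probe sets are understated. Median intensities of the arrays lay between 47.2 and 49.5. The labels do not say whether the 2 arrays of a group stem from different mice, and the p-values therefore rest on a spread between samples that may be technical. Atg16l1 itself read 966 and 995 in hypomorph and 1335 and 1183 in wildtype (limma, adjusted p = 0.102); the sources do not say whether this probe set lies in the altered stretch. Most Paneth cell markers were bright in both groups, with Lyz1 at 14829 ± 379 (SD, n = 2) against 15751 ± 382 in wildtype. Sox9 was dim, at 62.8 against 82.1. Of the 7 Paneth cell markers tested, Reg3g was called higher in hypomorph, at 8416.5 against 7024.4, and 0 were called lower. RNA of other cells was present in both groups too. The summed intensity of 12 fat cell markers was 32998 to 33168 in hypomorph and 10214 to 10371 in wildtype. Of 10 tested members 9 were higher. The sum of 13 enterocyte markers was 32435 to 33189 against 22963 to 23623, with 8 of 11 higher. Among the members called higher, Cidec, Lep and Lct were bright enough to be tested only through the hypomorph arrays. Enteroendocrine markers were lower in 4 of 9, with sums of 10247 to 10674 against 13018 to 14027. Over all genes, read by the brightest probe set, 4.23% were called in either direction. None of these markers read 0. Xist, expressed from the inactive X chromosome of female cells, read 4462 ± 67.9 in hypomorph and 21.8 ± 5.36 in wildtype. Sex and genotype therefore cannot be told apart in any value below, and the part of other cells in the clock values was not tested. In such bulk samples, fewer cells of a type and less RNA per cell cannot be told apart either.

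Per1 and, by a narrow margin, Per2 were lower in the hypomorph samples, and no gene of the activating arm was called. Per1 read 91.3 ± 13.8 in hypomorph and 202 ± 18.4 in wildtype, and 1 of 2 tested Per2 probe sets also passed the test. Per3, Cry1 and Cry2 read lower on both hypomorph arrays in 5 of their 6 tested probe sets, but none of these passed. Arntl and Clock, which encode the activating pair, differed by at most 0.25 log2 units and did not pass, and neither did the bright probe sets of Dbp and Tef. A probe set was called at an adjusted p under 0.05 in limma, and was tested only if its mean log2 value reached the median of all probe sets, 6.32. Of the 24 clock probe sets 17 were tested, and 2 were called, both lower. Over all 22519 tested probe sets 3.71% were called in either direction and 1.67% were called lower. Without adjustment 9 of the 17 had a p under 0.05, of which 8 were lower, beside 4625 of 22519 with 2592 lower. The median difference was -0.28 for the 17 and -0.03 for all tested probe sets. Several of the 17 read the same gene. Of the 9 genes tested by their brightest probe set 1 was called, beside 4.23% of all genes in either direction. The median difference of the 9 was -0.11, against -0.02 for all 11577 genes. In 10 of the 17 both hypomorph arrays lay below both wildtype arrays, which was so for 29.9% of all tested probe sets. In 3 of the 17 they lay above, as in 4915 of all 22519. By brightest probe set 5 of the 9 genes lay below and 3 above, beside 3478 and 2706 of all 11577 genes. Neither call was made without wildtype replicate 2, and 1 was left without hypomorph replicate 1 and without wildtype replicate 1.

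**Figure D1:**
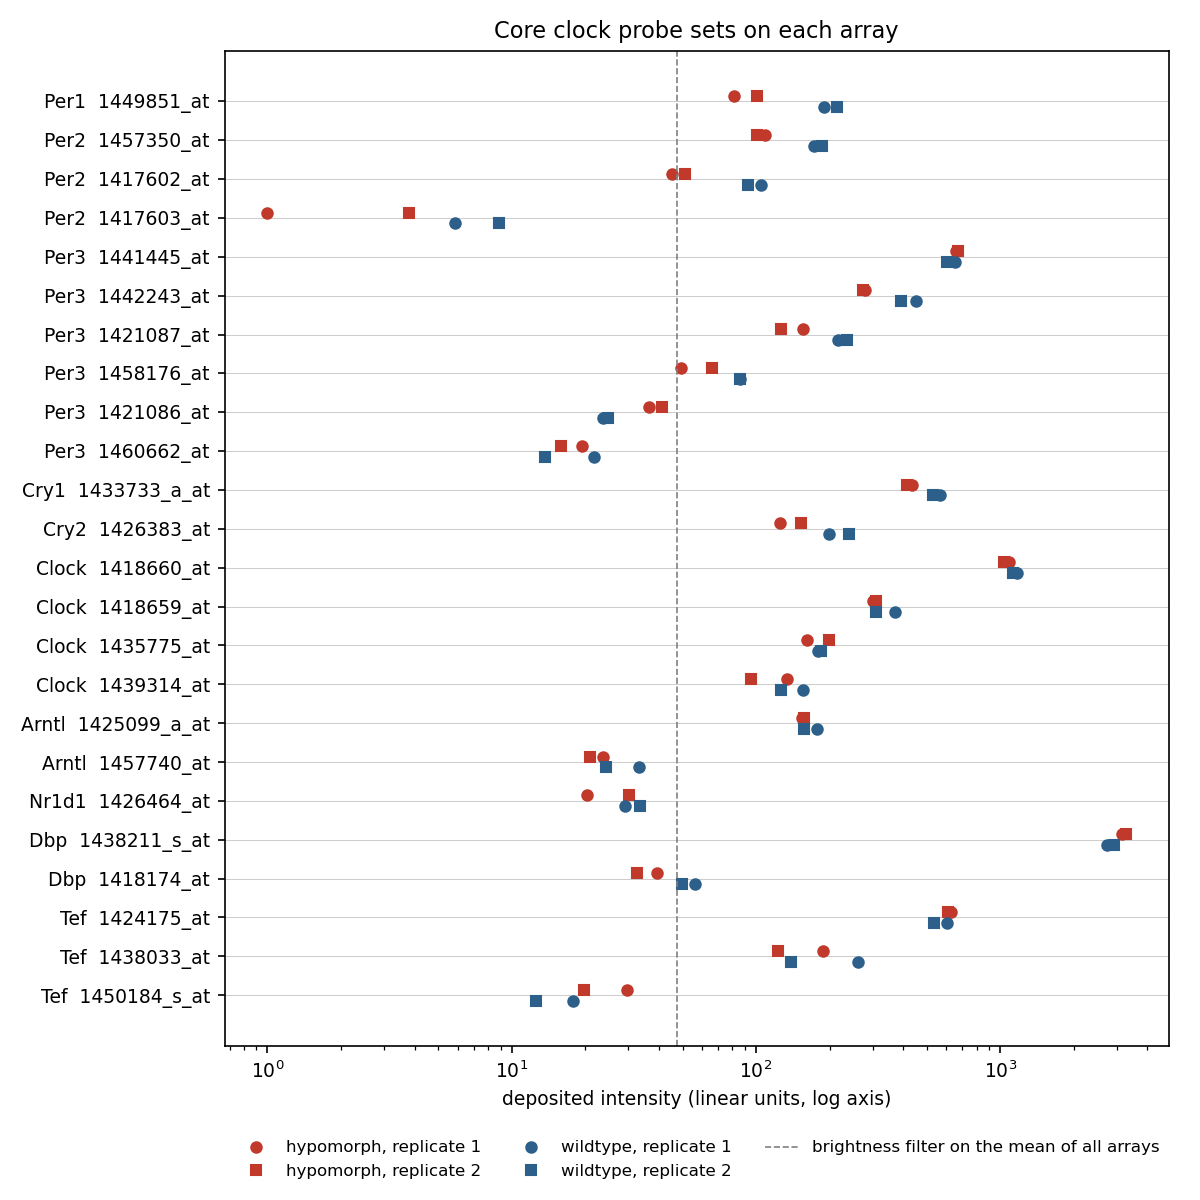
Deposited intensity (linear units on a log axis) of each of the 24 core clock probe sets on the 4 arrays, red for hypomorph and blue for wildtype, circles for replicate 1 and squares for replicate 2. The dashed line marks the brightness filter. Red and blue separate widely for Per1 and for the 2 tested Per2 probe sets, and lie close together for Clock and Arntl.

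Per1 is the period gene that answers fastest to outside signals. Its probe set 1449851_at read 81.6 and 101 in the hypomorph samples and 189 and 215 in wildtype. The groups did not overlap, and the gap between them was wider than the spread within either. Wildtype was 2.21-fold higher in mean intensity. The log2 difference was -0.93 (SE 0.17, 95% interval -1.30 to -0.55), with adjusted p = 0.016 in limma. Without wildtype replicate 2 it was -0.85 with adjusted p = 0.0967, and with no brightness filter the adjusted p was 0.08. Without each of the other 3 arrays it was still called, at adjusted p of 0.0101 to 0.0496 in limma. Such fits leave 1 array in a group, whose own spread is then taken to equal that of the others.

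Per2 encodes the period protein that, with the cryptochromes, carries much of the repression in the loop. Probe set 1457350_at read 109 and 101 in hypomorph and 173 and 187 in wildtype, a log2 difference of -0.63 (SE 0.16) that did not pass (limma, adjusted p = 0.0607). The dimmer 1417602_at read 45.3 and 51.1 against 105 and 93, a 2.06-fold higher mean in wildtype. Its difference of -0.71 (SE 0.17) passed narrowly (limma, adjusted p = 0.0473). That call was lost without hypomorph replicate 1 (adjusted p = 0.116), without wildtype replicate 1 (0.247) and without wildtype replicate 2 (0.155). Groups did not overlap in either probe set, nor in the very dim 1417603_at, which read 1 and 3.79 against 5.85 and 8.9 and was not tested. The mean of all 3 probe sets differed by -0.51 (limma, adjusted p = 0.0434). Both tested probe sets gave differences of like size, on opposite sides of the threshold. Per2 lies on chromosome 1, as Atg16l1 does, with 88 RefSeq genes (assembly GRCm38.p6) between them. Of those, 18 were tested by their brightest probe set, and 2 were called higher and 1 lower, beside 4.23% of all 11577 genes tested in that way.

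Per3, the period gene least needed for rhythm itself, has 6 probe sets that did not all move alike. Of the 4 tested, 3 were lower on both hypomorph arrays. Probe set 1442243_at read 280 and 273 against 450 and 393 (log2 difference -0.55, SE 0.14; limma, adjusted p = 0.063). Probe set 1421087_at read 156 and 127 against 216 and 236 (-0.58, SE 0.16, adjusted p = 0.0852 in limma). The dimmer 1458176_at read 49.3 and 65.8 against 86.1 and 86.2 (-0.41, SE 0.17, adjusted p = 0.22 in limma). The brightest, 1441445_at, went the other way by a small margin, at 658 and 671 against 654 and 605 (0.08, 95% interval -0.19 to 0.34). That interval holds none of the estimates of the other 3, but it overlaps the interval of 1458176_at (-0.79 to -0.02). Whether the probe sets of Per3 differ from each other was not tested. Of the 2 that were too dim to test, 1421086_at was higher in hypomorph at 36.5 and 41.2 against 23.7 and 24.9, and 1460662_at overlapped between groups at 13.6 to 21.6. The sources used here do not say which transcripts each probe set reads.

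Cry1 and Cry2 encode the cryptochromes, the strongest repressors of the CLOCK and BMAL1 pair. Cry1 read 436 and 414 in hypomorph and 569 and 532 in wildtype, with a log2 difference of -0.35 (SE 0.13; limma, adjusted p = 0.156). Cry2 read 125 and 153 against 199 and 241, with a difference of -0.56 (SE 0.17; limma, adjusted p = 0.103). Both genes were lower on both hypomorph arrays, and neither passed the test.

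**Figure D2:**
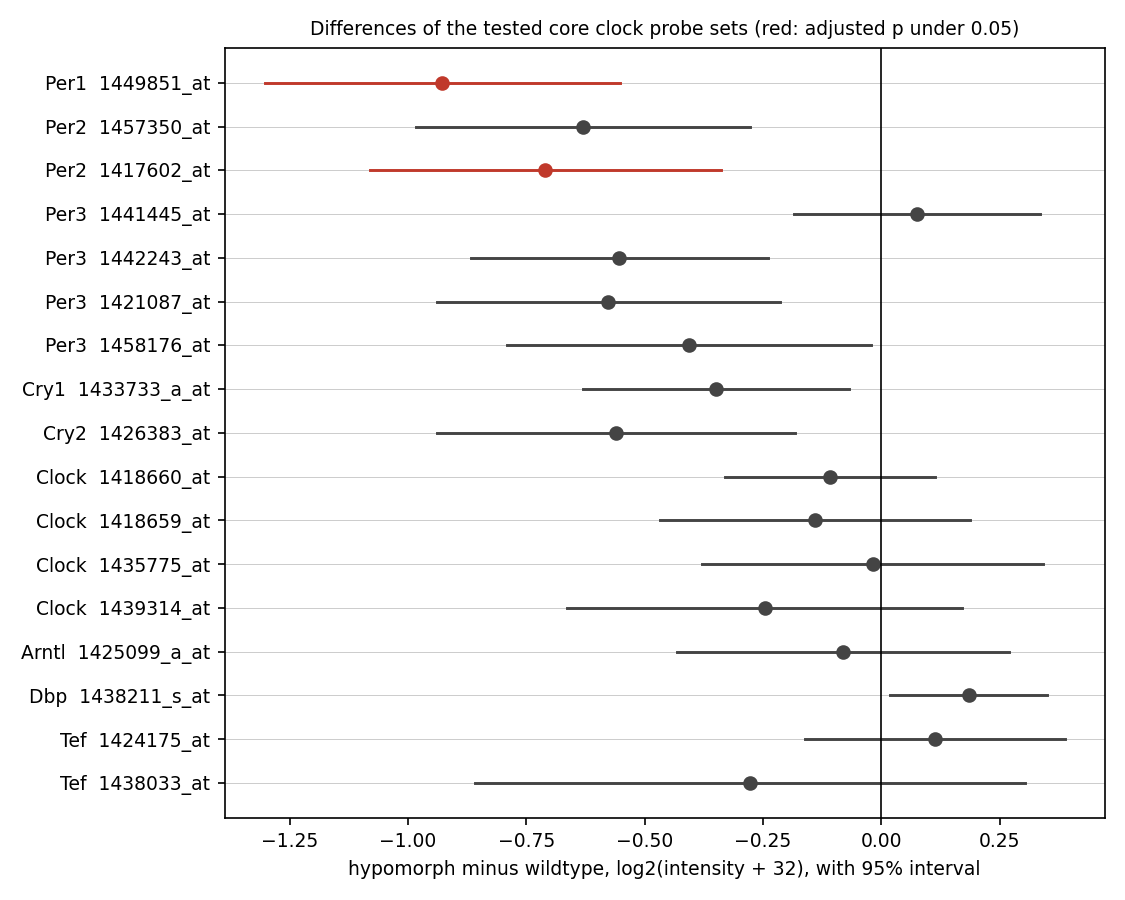
Log2 difference, hypomorph minus wildtype, of the 17 tested core clock probe sets, with the 95% interval from limma; red marks an adjusted p under 0.05. Intervals of Per1, Per2, Cry1, Cry2 and all Per3 probe sets but the brightest lie wholly left of 0. That of Dbp lies wholly right of 0, and those of Clock, Arntl and Tef include 0.

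The start-site regions of these genes were searched for elements through which the loop acts, which some of them hold, and 4 are shown: that of Per1, which was called lower, and those of Cry1, Per3 and Tef, which were not called. RefSeq promoter windows (GRCm38.p6) of 300 bases, 250 before the start site and 50 from it on, were at hand for 9 of the 10 genes, all but Per2, 14 windows in all. Both strands were searched for the E-box CACGTG, the E'-box CACGTT, the D-box as TTATGTAA or as TTACGTAA, the half-site of ROR and REV-ERB receptors AGGTCA, and the cAMP response element TGACGTCA. An E-box was found in 4 of the 14 windows and in 7.15% of all 32851 windows of that table, an E'-box in 3 and in 4.68%, and a D-box in 1 and in 1.06%. The receptor half-site was found in 3 windows and in 16.3% of all, and the cAMP response element in 0 and in 1.79%. In the windows of these genes no matches overlap. Below, capitals mark the E-boxes, E'-boxes and D-boxes only, and each window runs 5′ to 3′ on the strand of its gene. Per1 (chr11:69098699-69098998, plus strand) has an E-box whose first base lies 166 bases before the start site, and a receptor half-site at 137, left in lower case; its second window holds none of the motifs. Cry1 (chr10:85185005-85185304, minus strand) has an E'-box 79 and an E-box 60 bases before it. Per3 (chr4:151044616-151044915, minus strand) has D-boxes, the sites bound by DBP and TEF, at 205 and 158 bases before it. Tef (chr15:81802423-81802722, plus strand) has an E-box at 127 bases before it.
Per1: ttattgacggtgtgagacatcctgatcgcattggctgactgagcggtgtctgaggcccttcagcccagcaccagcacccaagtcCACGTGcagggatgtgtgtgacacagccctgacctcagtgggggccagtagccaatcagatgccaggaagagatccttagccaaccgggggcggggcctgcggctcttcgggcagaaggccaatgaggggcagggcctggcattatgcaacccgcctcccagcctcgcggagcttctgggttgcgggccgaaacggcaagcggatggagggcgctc
Cry1: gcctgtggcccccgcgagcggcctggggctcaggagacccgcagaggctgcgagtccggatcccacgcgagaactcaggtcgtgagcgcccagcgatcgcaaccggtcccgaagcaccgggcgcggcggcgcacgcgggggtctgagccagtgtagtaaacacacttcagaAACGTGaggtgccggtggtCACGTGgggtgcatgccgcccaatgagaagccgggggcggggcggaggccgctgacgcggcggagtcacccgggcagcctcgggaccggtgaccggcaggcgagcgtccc
Per3: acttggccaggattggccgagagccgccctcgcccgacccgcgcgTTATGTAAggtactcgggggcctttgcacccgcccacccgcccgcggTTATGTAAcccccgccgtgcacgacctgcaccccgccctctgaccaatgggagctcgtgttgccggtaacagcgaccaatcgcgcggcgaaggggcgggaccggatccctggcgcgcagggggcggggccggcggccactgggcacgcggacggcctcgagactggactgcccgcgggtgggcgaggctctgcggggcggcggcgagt
Tef: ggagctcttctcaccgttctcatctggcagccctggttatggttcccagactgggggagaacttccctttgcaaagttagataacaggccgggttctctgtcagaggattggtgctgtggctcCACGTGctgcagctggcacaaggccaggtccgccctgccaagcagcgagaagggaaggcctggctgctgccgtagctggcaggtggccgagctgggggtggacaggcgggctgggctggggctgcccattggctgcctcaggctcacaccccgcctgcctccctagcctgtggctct

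An E-box was thus present in the window of a gene that was called lower (Per1) and of 2 genes that were not (Cry1 and Tef). The windows of Cry2 and Nr1d1 each held an E'-box, and those of Clock, Arntl and Dbp held no E-box, E'-box or D-box. One window each of Clock and Arntl held a receptor half-site. These matches describe letters only, and no binding was measured.

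Clock and Arntl encode the activating pair. The brightest of 4 Clock probe sets, 1418660_at, read 1084 and 1035 in hypomorph and 1167 and 1123 in wildtype, a difference of -0.11 (95% interval -0.33 to 0.11; limma, adjusted p = 0.578). The other 3 differed by -0.14, -0.02 and -0.25 with adjusted p of 0.631, 0.967 and 0.494 in limma, and groups overlapped in the last 2. In 1425099_a_at Arntl read 155 and 157 in hypomorph, against 177 and 157 in wildtype. Its difference was -0.08 (95% interval -0.43 to 0.27; limma, adjusted p = 0.818), so a rise of more than 0.27 log2 units lies outside the interval. The dimmer Arntl probe set 1457740_at, at 20.8 to 33.3 on all arrays, was below the filter.

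Nr1d1 encodes REV-ERB alpha, the repressor of Arntl and one of the most strongly cycling transcripts of peripheral tissues. Its only probe set, 1426464_at, read 20.3 and 30.1 in hypomorph and 29 and 33.6 in wildtype. The groups overlapped and the probe set was below the filter, so at this brightness no difference in Nr1d1 was detectable.

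Dbp and Tef encode PAR bZIP factors that pass the rhythm on to D-box genes. Dbp gave contrary readings. The bright 1438211_s_at read 3149 and 3259 in hypomorph and 2724 and 2907 in wildtype, a small difference upward of 0.19 (95% interval 0.02 to 0.35) that did not pass (limma, adjusted p = 0.198). The dim 1418174_at read 39.2 and 32.7 against 56.2 and 49.5, lower on both hypomorph arrays, and stood just under the filter. The suffix _s_at marks a probe set that can match transcripts of more than one gene, so which of the 2 tracks Dbp is uncertain. Tef read 626 and 613 against 607 and 536 in its brightest probe set (0.11, 95% interval -0.16 to 0.39; limma, adjusted p = 0.644). A second, 1438033_at, spread widely within both groups, at 188 and 123 against 262 and 139, and overlapped between them. The third, 1450184_s_at, read 12.5 to 29.7 and was not tested.

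The arms of the loop were also set against each other, as means over genes that left out Cry1 and Cry2. Those repressors differed by -0.35 and -0.56 (hypomorph minus wildtype). The mean log2 level of Arntl, Clock and Npas2, an alternative partner of BMAL1, was 7.70 and 7.78 in hypomorph and 7.90 and 7.94 in wildtype. For Per1, Per2, Per3, Nr1d1, Dbp and Tef it was 8.35 and 8.42 against 8.59 and 8.62. Their hypomorph minus wildtype differences were -0.18 and -0.22, with no test. The first rests largely on Npas2, which was below the filter at 11.1 and 21.1 in hypomorph and 22.5 and 35.3 in wildtype (-0.34), since Clock and Arntl differed by -0.11 and -0.08. The first mean minus the second was -0.65 and -0.64 in hypomorph and -0.69 and -0.69 in wildtype. That contrast was 0.05 higher in hypomorph (pooled SD 0.0068), more than the spread within groups, but it was -0.0409 with a pseudocount of 1 in place of 32. These means use the brightest probe set of each gene, which for Per3 and Dbp are the ones that were not lower, and Nr1d1, like Npas2, is dim. Whether the groups were sampled at different hours was not tested, since the labels give no hour.

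**Figure D3:**
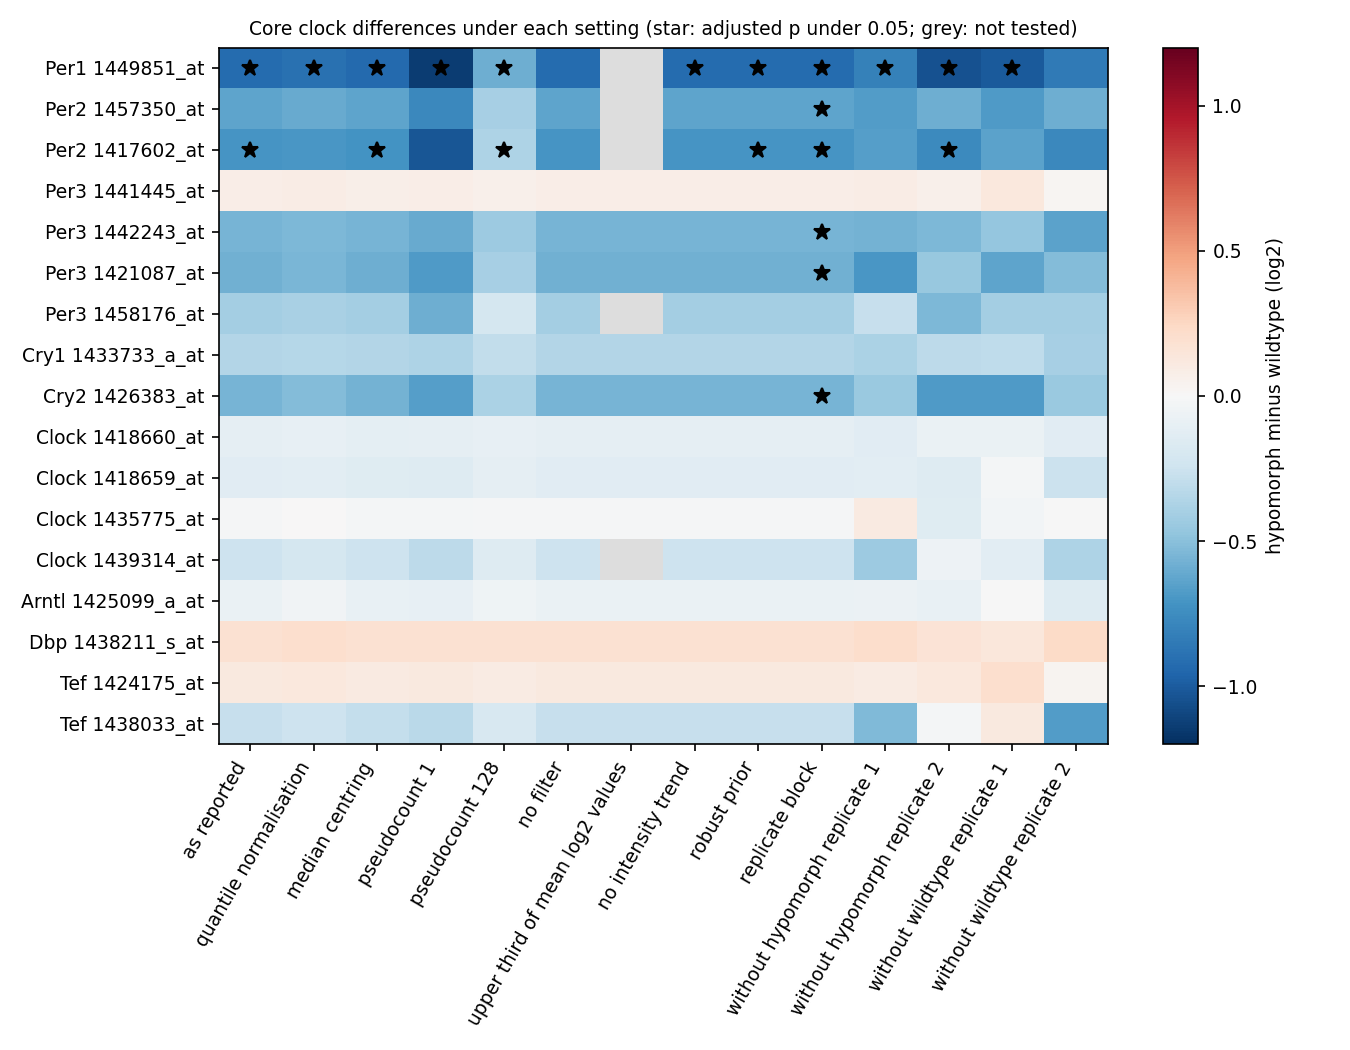
Log2 difference, hypomorph minus wildtype, of each tested core clock probe set (rows) under the reported fit and 13 alternatives (columns), blue for lower and red for higher in hypomorph. Stars mark an adjusted p under 0.05 and grey cells were not tested. The rows of Per1, Per2, Cry1 and Cry2 are blue in every tested column, and stars are most frequent for Per1.

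Beyond the 10 genes, a list of 23 further clock genes was read by the brightest probe set of each. Of the 21 on the array 16 were tested, and 0 passed at an adjusted p under 0.05 in limma, beside 4.23% of all genes. An unadjusted p under 0.05 was seen in 5, of which 4 were lower, beside 2508 of all 11577 genes with 1346 lower. The median difference of the 16 was -0.06, against -0.02 for all 11577 genes. Csnk1e, a casein kinase that marks PER proteins for decay, read 72.5 and 78.5 in hypomorph and 134 and 130 in wildtype (limma, adjusted p = 0.0686). Ppargc1a, a coactivator that acts with ROR factors on Arntl, read 466 and 380 against 584 and 642 (limma, adjusted p = 0.0781). Nfil3, a repressor at D-boxes that works against DBP, read 185 and 181 against 137 and 122 (limma, adjusted p = 0.176). Cipc, an inhibitor of CLOCK, read 3325 and 3459 against 3809 and 3826 (limma, adjusted p = 0.196). Groups did not overlap in any of these 4, which were picked for their small p. Over all 11577 genes both hypomorph arrays lay below both wildtype arrays in 3478 and above them in 2706. Dimmer probe sets of Ppargc1a and Cipc, noted after their values were seen, did pass. Ppargc1a fell by 0.98, 0.91 and 0.83 on the log2 scale in 3 probe sets and Cipc fell by 0.85 in 1, so 4 of the list's 42 tested probe sets were called, all lower, beside 1.67% of all tested probe sets called lower. Another member, Csnk1d, read 8866.5 and 10612 in hypomorph against 10674 and 10624 in wildtype (-0.13, adjusted p = 0.342 in limma). Without hypomorph replicate 2 its difference was -0.26, which then rested on hypomorph replicate 1 alone. None of its dimmer tested probe sets passed with all arrays.

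Among genes that respond to glucocorticoids, as Per1 does, 6 of 14 tested fell and 0 rose (limma, adjusted p under 0.05), beside 4.23% of all genes called in either direction. Their median difference was -0.48, and 12 had an unadjusted p under 0.05, of which 11 were lower, beside 2508 of all 11577 genes. The kinase gene Sgk1 read 1608 and 1549 in hypomorph and 3414 and 3079 in wildtype (log2 difference -1.02). Pdk4, which spares glucose, fell by 1.44 on the log2 scale, Mt2 by 0.82, Zbtb16 by 0.71, Errfi1 by 0.58 and Tsc22d3, which encodes the anti-inflammatory GILZ, by 0.56. Several of these genes answer to fasting, metals or other signals as well. Dimmer tested probe sets of Zbtb16 and Tsc22d3 differed by -0.37 and -0.38 and did not pass (adjusted p = 0.277 and 0.244 in limma). Among 10 heat and cold shock genes 5 fell and 0 rose, again beside 4.23% of all genes. Their median difference was -0.37, and 6 had an unadjusted p under 0.05, all of them lower, beside 2508 of all 11577 genes with 1346 lower. Cirbp, a cold-inducible RNA-binding protein that follows body temperature over the day and binds Clock transcripts, read 46.7 and 34.3 in hypomorph and 134 and 96.6 in wildtype (log2 difference -1.02; limma, adjusted p = 0.0187). Its mean reached the brightness filter only through the wildtype arrays, and with no filter its adjusted p was 0.108 in limma. Hspa1b fell by 1.53, Hspa1a by 1.24, Hsph1 by 0.66 and Hspb1 by 0.55, and Hspa1a and Hspa1b are near-identical copies whose probes may not separate them. A dimmer probe set of Hspb1 differed by -0.42 and did not pass (adjusted p = 0.196 in limma). Dimmer probe sets of Hspa1b and Hsph1 were also called lower. Without wildtype replicate 1 the heat shock count was 3. Both lists were chosen with earlier results of these arrays known, and their part in the Per1 value was not tested.

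**Figure D4:**
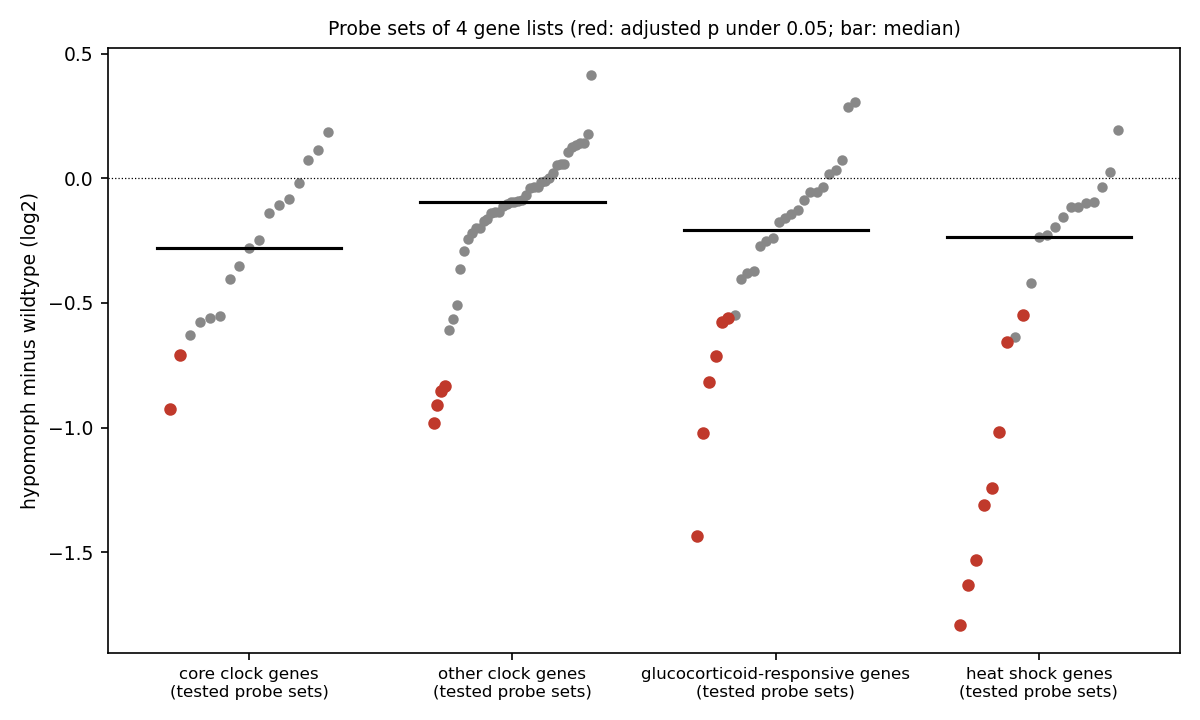
Log2 difference, hypomorph minus wildtype, of each tested probe set of 4 gene lists, sorted within a list, with red for an adjusted p under 0.05 and a bar at the median. The medians are -0.28 for the core clock, -0.09 for other clock genes, -0.21 for glucocorticoid-responsive genes and -0.23 for heat shock genes, and every red point lies below 0. A gene with several probe sets counts several times here. With 1 probe set per gene, the brightest, the medians were -0.11, -0.06, -0.48 and -0.37 in the same order, so the lists rank differently.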

How the data were processed

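Total RNA of laser-captured cells was extracted, amplified and labelled with biotin for 1-colour arrays, per the labels' protocols. The authors deposited 1 linear intensity per probe set and array; the sources used here do not give their scaling, background correction or summary method, and the values were not normalised again. Of 45101 probe sets, 64 controls were left out and 34945 carried 1 gene symbol. Intensities were tested as log2(intensity + 32) with limma 3.58.1 in R 4.3.3 (lmFit, eBayes with an intensity trend, group as the only term, 2 residual and 7.81 prior degrees of freedom). Probe sets at or above the median mean log2 value were tested, 22519 in all, with Benjamini-Hochberg adjustment over them, two-sided. A gene was read by its brightest probe set. The procedure was tested on simulated data. Precision is limited by the number of arrays. The 10 genes and all lists were chosen with earlier results of these data known. Named were the 10 genes, and from the other clock, glucocorticoid and heat shock lists the called genes, or up to 4 with the smallest p; Csnk1d and dimmer probe sets were added after their values were seen. No likeness between genes across arrays was computed, since 4 arrays are too few. Alternatives changed the scaling, the pseudocount (1, or 4 times the reported one), the filter, the variance prior, a replicate block, the probe sets of a gene and the arrays used; applying them to the glucocorticoid and heat shock counts was decided after seeing the data. Motifs were searched in Python 3.11.15.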

Additional observations from a re-analysis of the deposited data

How the results depend on the processing

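Differences of Per1, Per2, Cry1 and Cry2 stayed negative under every setting in which they were tested, as did those of Arntl and of 3 probe sets each of Clock and Per3. Over all probe sets, 836 calls became 303 with no brightness filter, 323 with no intensity trend and 500 to 1648 with an array left out. The 2 clock calls became 1 with quantile normalisation, 1 with a pseudocount of 1, 1 with no intensity trend, 0 with no filter, 0 with a stricter filter that left Per1 and Per2 untested and 0 to 2 with an array left out. Among other clock genes 0 calls became 0 to 1 with an array left out and 1 (Ppargc1a) with the mean of all probe sets. Replicate numbers are shared between groups, but nothing in the labels pairs the arrays; deviations of same-numbered arrays correlated at 0.264 over probe sets. With the replicate number as a block 3206 probe sets, 6 clock probe sets (Per1, both tested ones of Per2, Per3 1442243_at and 1421087_at, and Cry2) and 2 other clock genes (Ppargc1a and Csnk1e) were called. Signs turned, without any call, for Clock 1435775_at (0.0075 with quantile normalisation; -0.143 to 0.107 with an array left out, the latter without hypomorph replicate 1), Tef 1438033_at (-0.67 to 0.114, the latter without wildtype replicate 1), and, with the mean of all probe sets, Per3 (-0.188) and Dbp (-0.0682). The small difference between the arms of the loop left out Cry1 and Cry2. It was -0.0409 with a pseudocount of 1 and 0.0251 with one 4 times the reported. For each of these changes the cause was not tested beyond what the setting itself removes. The glucocorticoid count of 6 became 3 with no intensity trend and 11 with the replicate block, and the heat shock count of 5 became 3 with no filter and 2 with no intensity trend. Low signal limits Nr1d1, Npas2 and the dim probe sets of Per2, Per3, Dbp and Tef, and the deposited values carry no detection calls.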
